A study of Mus musculus with 15 samples.

Results

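The 10 genes described here carry out antigen presentation by the major histocompatibility complex (MHC). They were chosen by name, with earlier results of these data known. Counts among them beside shares of all genes are therefore descriptions. Each was present in the count files of all 15 mice, which list 39179 genes. H2-K1, H2-D1, B2m, Tap1 and Tap2 serve class I, and H2-Aa, H2-Ab1, H2-Eb1, Cd74 and Ciita serve class II. All 10 passed the filter on low counts in each of the 5 comparisons.

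Class I molecules are present on nearly every nucleated cell and display peptides made inside that cell to CD8+ T cells. Their heavy chains pair with the light chain B2m, and the transporter Tap1-Tap2 pumps peptides into the endoplasmic reticulum for loading. Class II molecules are made mainly by dendritic cells, macrophages and B cells, where the invariant chain Cd74 guards the peptide groove until the endosome and the coactivator Ciita switches on the class II genes. Healthy muscle fibres are known to carry little class I and no class II on their surface.

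RNA was taken from quadriceps muscle of C57BL/6 mice that were wild-type or homozygous for V338Y, an amino acid exchange in the mitochondrial ribosomal protein Mrps5. The 3 mo groups held 4 mice of each genotype, and the 19 mo groups 3 wild-type and 4 V338Y animals. The V338Y allele is in the germ line and so was carried by every cell, immune cells included, and both genotypes have the same strain name. The sequenced tissue is a homogenate in which fibres, vessels, fat and resident immune cells are mixed. The depth was 8250653 to 18968132 counts per mouse, and levels are given as CPM, counts scaled to the size of each library after TMM normalization. Mouse numbers are those of the labels.

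Some properties of the samples bear on every age comparison. The 3 mo mice had at most 0.575 CPM of Xist, a transcript of the inactive X chromosome, and 163 to 202 CPM of the Y-linked Ddx3y. The 19 mo mice had 506 to 631 CPM of Xist and at most 0.0827 CPM of Ddx3y. The labels give no sex and the methods describe the 3 mo mice as female, which these levels go against, so age and sex cannot be told apart here. Skeletal muscle markers were abundant in every mouse, with a summed level of 71940 to 149988 CPM. V338Y mouse 5 at 19 mo stood apart, with a summed neutrophil marker level of 603 CPM against 0.365 to 27.8 CPM in the other 14 mice. Mrps5 itself, as a check of the mutated gene, averaged 23.7 CPM (SD 1.83, n = 4) in the wild type and 25.7 CPM (SD 1.50, n = 4) in the mutant at 3 mo, and 17.7 CPM (SD 1.79, n = 3) and 17.4 CPM (SD 1.64, n = 4) at 19 mo. It did not pass between genotypes at either age, and gene counts do not show the amino acid exchange.

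Of the 10 genes, 7 lie within 1.27 Mb of chromosome 17, from 33996017 to 35267499 in GRCm38, the mouse MHC. B2m is at chr2:122147686-122153083 on the plus strand and Ciita at chr16:10480059-10528418 on the plus strand. Promoters of the MHC genes share an element known as the SXY module, in which a CRE-like X2 box (TGACG) and a Y box (ATTGG, the reverse complement of CCAAT) sit in a fixed order and bind factors that recruit Nlrc5 at class I and Ciita at class II genes. RefSeq promoter windows (GRCm38.p6) were searched for H2-K1, H2-D1, B2m, Tap1, H2-Aa and H2-Eb1. Cd74 was left out of this search by choice, and no window was listed for Tap2, H2-Ab1 or Ciita. A promoter of each class is shown with that of the light chain and of H2-Eb1, as up to 150 bases 5′ of the annotated gene, with capitals for matches to CCAAT, to TGACG and to AANNGAAA, a core of interferon-regulatory-factor sites, on either strand. They are H2-K1 at chr17:34000348-34000497 (minus strand), B2m at chr2:122147537-122147685 (plus strand), H2-Aa at chr17:34287824-34287973 (minus strand) and H2-Eb1 at chr17:34305717-34305866 (plus strand).
H2-K1: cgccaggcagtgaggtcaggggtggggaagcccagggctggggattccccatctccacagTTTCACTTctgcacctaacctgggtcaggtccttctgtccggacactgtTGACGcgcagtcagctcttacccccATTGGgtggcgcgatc
B2m: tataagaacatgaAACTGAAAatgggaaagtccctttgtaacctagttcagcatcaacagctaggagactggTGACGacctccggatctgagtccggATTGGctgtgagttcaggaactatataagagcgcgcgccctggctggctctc
H2-Aa: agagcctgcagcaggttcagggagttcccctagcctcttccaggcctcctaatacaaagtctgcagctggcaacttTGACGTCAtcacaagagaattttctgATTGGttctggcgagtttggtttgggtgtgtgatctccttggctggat
H2-Eb1: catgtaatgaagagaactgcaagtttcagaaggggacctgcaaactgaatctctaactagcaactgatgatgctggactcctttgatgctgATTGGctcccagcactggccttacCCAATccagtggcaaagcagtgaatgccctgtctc

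In H2-K1 and B2m the letters TGACG stood 20 bases before ATTGG, and in H2-Aa 21 bases before it. The H2-D1 window, not printed, held the same pair 20 bases apart, and 176 of 240 bases (73.3%) matched between the H2-D1 and H2-K1 windows when shifted by 60 bases. TGACG followed by ATTGG at 20 or 21 bases, a spacing chosen after the sequences were seen, was present in 4 of the 6 windows and in 0.152% of 32851 mouse windows of 250 bases. Single motifs are common, with CCAAT in 6 of the 6 windows and 33.8% of all windows, TGACG in 5 and 17.8%, and AANNGAAA in 4 and 21.3%. Tap1 had TGACG and CCAAT without that spacing, and H2-Eb1 had CCAAT on both strands and no TGACG. These are matches of letters and not measured binding.

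Levels of different genes were compared per kb of exon. In wild-type mice at 3 mo, B2m stood at 79.8 ± 11.8 CPM per kb (SD, n = 4) and was the highest of the 10 genes. H2-D1 at 28.1 ± 4.62 and Cd74 at 27.5 ± 7.95 CPM per kb followed and overlapped, and Cd74 overlapped H2-K1 at 18.2 ± 2.81 CPM per kb. The class II chains formed the next tier, with H2-Eb1 at 10.4 ± 2.59, H2-Ab1 at 8.01 ± 2.24 and H2-Aa at 7.23 ± 2.01 CPM per kb, which overlapped each other but not H2-K1. The transporter and the coactivator were lowest, with Tap2 at 1.76 ± 0.390, Tap1 at 0.533 ± 0.161 and Ciita at 0.227 ± 0.0525 CPM per kb, and these 3 did not overlap. At 19 mo Cd74 ranked second, at 40.0 ± 6.41 CPM per kb in wild-type (n = 3) and 49.6 ± 18.6 CPM per kb in V338Y mice (n = 4). H2-D1 then stood at 30.4 ± 2.56 and 45.5 ± 11.9 CPM per kb, overlapping Cd74 in V338Y but not in wild-type mice. The low order of Ciita rests on 17 to 66 counts per mouse, and that of Tap1 on 25 to 149.

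**Figure D1:**
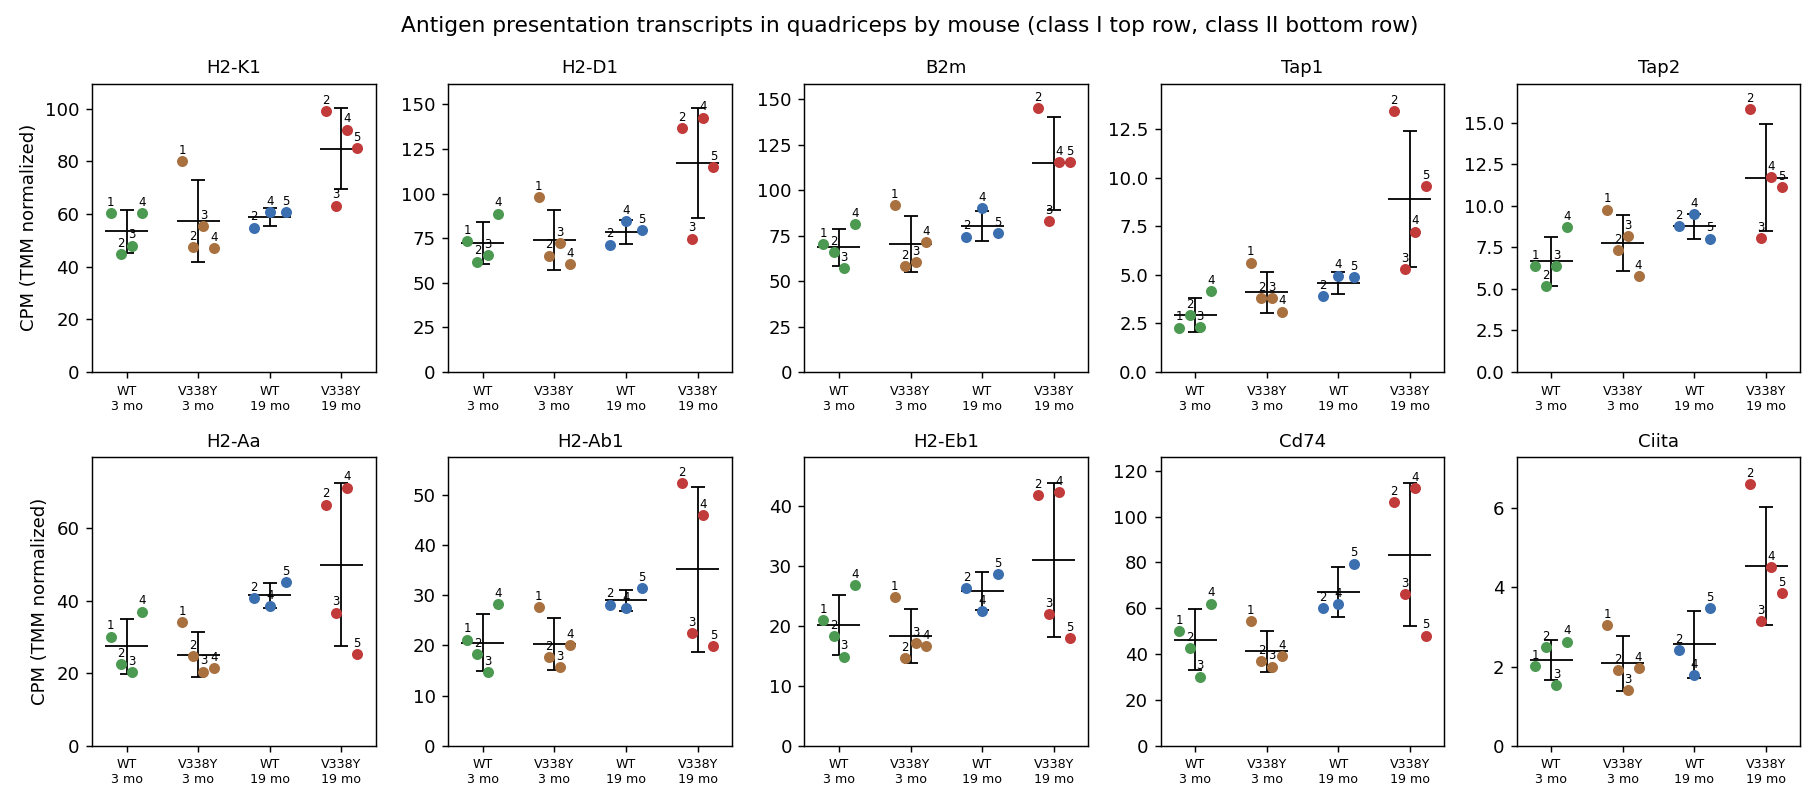
Level of each gene in each mouse in CPM after TMM normalization (y axis, linear from 0) by group (x axis), class I genes in the top row and class II genes in the bottom row. Points are mice with their label numbers, the long line is the group mean and the bars are the SD (n = 4, 4, 3 and 4). H2-K1 and Tap1 of V338Y mice at 19 mo lie above all wild-type mice of that age, and mouse 5 of that group is high in the top row and low for H2-Aa, H2-Ab1, H2-Eb1 and Cd74.

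The class I heavy chains H2-K1 and H2-D1 bind the peptide. H2-K1 in the wild-type mice was at 60.5, 44.7, 48.0 and 60.5 CPM at 3 mo (mice 1 to 4) and at 54.8, 60.6 and 60.9 CPM at 19 mo (mice 2, 4 and 5). In V338Y mice it was at 80.1, 47.6, 55.3 and 47.0 CPM at 3 mo (mice 1 to 4) and at 99.2, 63.2, 92.1 and 85.0 CPM at 19 mo (mice 2, 3, 4 and 5). The wild-type ages overlapped, and the V338Y ages overlapped only because mouse 1 at 3 mo exceeded mouse 3 at 19 mo. H2-D1 was at 73.4, 61.9, 65.5 and 88.8 CPM in wild-type and 97.9, 65.3, 72.1 and 60.4 CPM in V338Y mice at 3 mo. At 19 mo it was at 71.4, 84.5 and 79.4 CPM in wild-type and 137, 74.8, 143 and 115 CPM in V338Y mice. Here V338Y mouse 3 fell among the wild-type mice and the other three stood above all of them.

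B2m, the light chain that every class I heavy chain needs to reach the surface, was at 70.3, 65.7, 57.1 and 81.5 CPM in wild-type and 91.6, 58.1, 60.5 and 71.4 CPM in V338Y mice at 3 mo. At 19 mo it was at 74.4, 90.0 and 76.5 CPM in wild-type and 145, 82.9, 115 and 115 CPM in V338Y mice, again with mouse 3 among the wild-type values. The 3 genes kept close proportions, with H2-K1 at 0.645 to 0.845 times H2-D1 and B2m at 0.475 to 0.664 times the sum of both over the 15 mice, as ratios of CPM.

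Tap1 and Tap2 are the subunits of the peptide transporter. Tap1 was at 2.28, 2.91, 2.32 and 4.17 CPM in wild-type and 5.63, 3.81, 3.81 and 3.11 CPM in V338Y mice at 3 mo. At 19 mo it was at 3.92, 4.96 and 4.88 CPM in wild-type and 13.4, 5.30, 7.23 and 9.58 CPM in V338Y mice, with no overlap. Tap2 was at 5.18 to 8.71 CPM in wild-type and 5.76 to 9.77 CPM in V338Y mice at 3 mo, and at 8.02 to 9.48 and 8.05 to 15.8 CPM at 19 mo. The pair did not keep one proportion, since the CPM ratio of Tap1 to Tap2 was 0.615 to 0.861 in V338Y mice at 19 mo and 0.357 to 0.608 in the other 11 mice. The gap between these ranges is small, and the ratio was not tested.

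H2-Aa and H2-Ab1 form the I-A molecule, and H2-Eb1 is the beta chain of I-E. The files' strain, C57BL/6, is known to lack the I-E alpha chain, so that H2-Eb1 transcript gives no surface I-E there. H2-Aa was at 30.1, 22.6, 20.2 and 37.0 CPM in wild-type mice at 3 mo and at 40.7, 38.5 and 45.2 CPM at 19 mo, with no overlap of the ages. In V338Y mice it was at 34.0, 24.7, 20.4 and 21.4 CPM at 3 mo and at 66.5, 36.7, 71.2 and 25.2 CPM at 19 mo, where mouse 5 lay below the highest 3 mo mouse. H2-Ab1 ran from 14.6 to 28.2 CPM in wild-type and 15.7 to 27.6 CPM in V338Y mice at 3 mo, and stood at 28.1, 27.5 and 31.3 CPM in wild-type and 52.3, 22.4, 46.0 and 19.9 CPM in V338Y mice at 19 mo. H2-Eb1 went with it, at 0.801 to 1.09 times H2-Ab1 in CPM over the 15 mice.

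Cd74, the invariant chain, is encoded at chr18:60803848-60812652 on the plus strand. Its level was 50.2, 42.7, 30.2 and 62.0 CPM in wild-type and 54.4, 36.9, 34.6 and 39.0 CPM in V338Y mice at 3 mo. At 19 mo it was at 60.1, 61.8 and 79.5 CPM in wild-type and 106, 66.3, 113 and 48.1 CPM in V338Y mice. Mouse 5 at 19 mo was thus the lowest V338Y mouse of its age for Cd74 and for each of the 3 class II chains. Ciita, the class II coactivator, was at 2.01, 2.48, 1.53 and 2.63 CPM in wild-type and 3.05, 1.91, 1.41 and 1.96 CPM in V338Y mice at 3 mo. At 19 mo it was at 2.42, 1.78 and 3.47 CPM in wild-type and 6.61, 3.15, 4.52 and 3.86 CPM in V338Y mice, where every mouse exceeded the 4 V338Y mice of 3 mo. For Ciita mouse 3 was the lowest of the 4.

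The comparison of 19 mo with 3 mo asks how the transcriptome changes with age within a genotype. In V338Y mice 7 of the 10 genes were higher at 19 mo at a Benjamini-Hochberg adjusted p under 0.05 in edgeR's quasi-likelihood test, where 24.4% of the 13868 genes tested were called higher. They were H2-K1, H2-D1, B2m and Tap1 of class I and H2-Aa, Cd74 and Ciita of class II, and none of the 10 was lower, where 22.5% of all genes were. DESeq2 called 10 of the 10 higher, with 22.7% of all genes. In a homogenate, more cells of a type and more RNA per cell cannot be told apart, and this holds for each difference below. The median log2 fold change of the 10 genes was 0.78, beside 0.07 over all genes tested.

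Among the class I genes in V338Y mice, Tap1 had the largest log2 fold change with age, at 1.10 (SE 0.292, edgeR adjusted p = 0.0124). B2m rose by 0.72 on the log2 scale (SE 0.191, edgeR adjusted p = 0.0127), H2-D1 by 0.68 (SE 0.217, edgeR adjusted p = 0.0272) and H2-K1 by 0.57 (SE 0.195, edgeR adjusted p = 0.0350). Tap2 differed by 0.58 (SE 0.219) and narrowly missed the threshold (edgeR adjusted p = 0.0517). H2-K1 and H2-D1 are close relatives of other class I genes, although only 0.957% and 3.59% of their 100-base windows also occur in another gene, and the sum of their counts rose by 0.64 (edgeR adjusted p = 0.0293).

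Among the class II genes in V338Y mice, Ciita rose with age by 1.10 on the log2 scale (SE 0.301, edgeR adjusted p = 0.0143) and was the only one of the 10 whose ages did not overlap, a pattern found in the higher direction for 20.3% of all genes tested. Cd74 rose by 1.03 (SE 0.268, edgeR adjusted p = 0.0114) and H2-Aa by 1.0 (SE 0.318, edgeR adjusted p = 0.0273). H2-Ab1 at 0.80 (SE 0.323, edgeR adjusted p = 0.0659) and H2-Eb1 at 0.76 (SE 0.294, edgeR adjusted p = 0.0553) did not pass. Without V338Y mouse 5 of 19 mo, the mouse with the high neutrophil markers, 9 of the 10 genes passed, H2-Ab1 and H2-Eb1 now included at 1.0 and 0.96. Without V338Y mouse 2 or mouse 4 of 19 mo, or without mouse 2, 3 or 4 of 3 mo, 4 passed and H2-K1, H2-D1 and H2-Aa were lost, with adjusted p-values from edgeR of 0.0628 to 0.0957.

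In wild-type mice 1 of the 10 genes was higher at 19 mo, H2-Aa, with a log2 fold change of 0.60 (SE 0.188, edgeR adjusted p = 0.0336), where 18.3% of the 13657 genes tested were called higher. Its ages did not overlap, as in the higher direction for 21.7% of all genes. DESeq2 called 3 of the 10 higher, with 16.3% of all genes. The median over the 10 genes was 0.38, beside 0.02 over all genes, and all 10 log2 fold changes were above 0, as were 51.4% over all genes. Class II and the transporter had the larger values, with Tap1 at 0.66 (edgeR adjusted p = 0.0548), Cd74 at 0.54 (edgeR adjusted p = 0.0717), H2-Ab1 at 0.50 (edgeR adjusted p = 0.0639), Tap2 at 0.40 and H2-Eb1 at 0.36. H2-K1 at 0.14, H2-D1 at 0.12, B2m at 0.23 and Ciita at 0.24 differed by less than 2 SE. The count moved with single mice, since 6 genes passed without mouse 4 of 3 mo, 1 without mouse 1 of 3 mo and 0 without any one of the other mice, although the log2 fold change of H2-Aa stayed at 0.48 to 0.77.

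**Figure D2:**
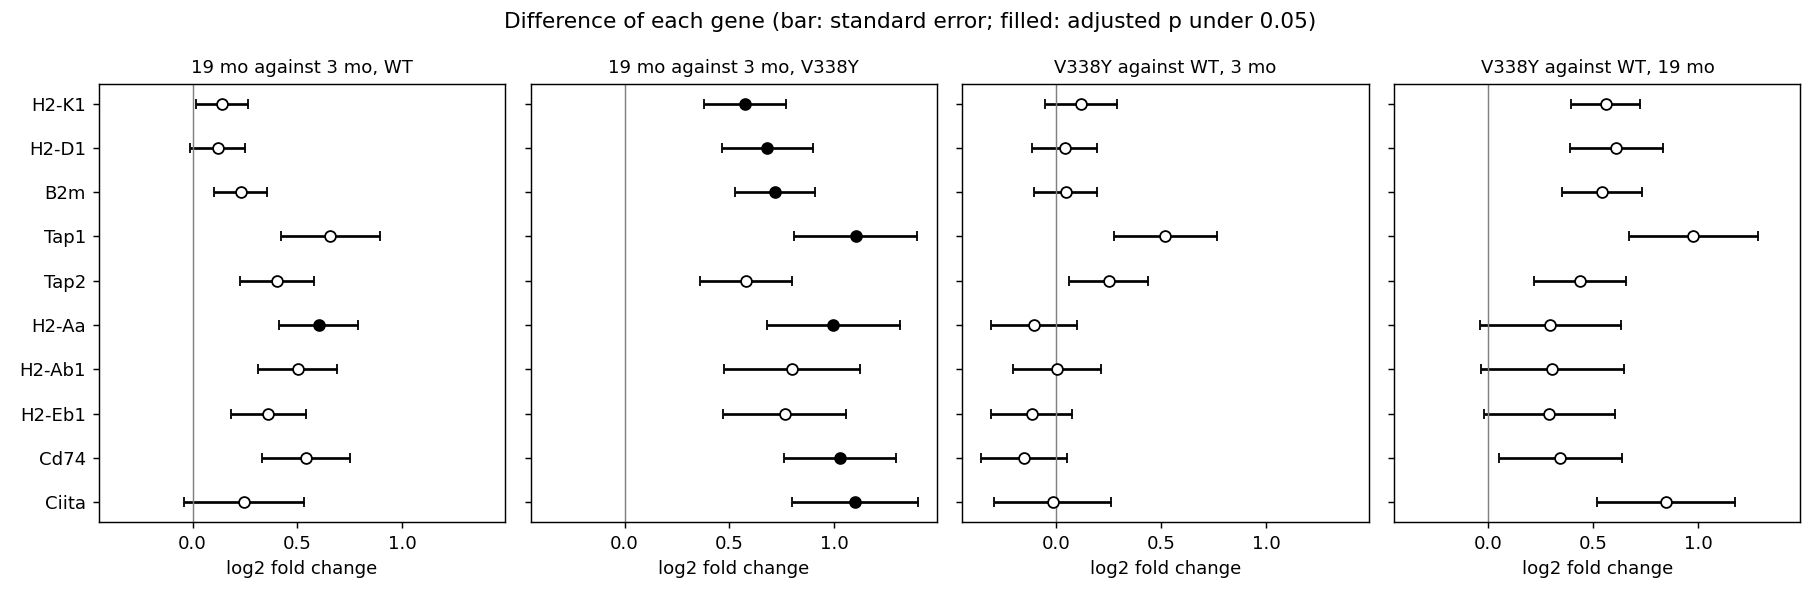
Log2 fold change of each gene (points, x axis) with its standard error (bars) in 4 comparisons, for 19 mo against 3 mo within each genotype and V338Y against wild type at each age. Filled points have an edgeR adjusted p under 0.05, and these are 1 gene in wild-type and 7 in V338Y mice with age and none between genotypes.

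V338Y and wild-type mice were compared at each age to ask what the mutation changes. At 3 mo 0 of the 10 genes passed edgeR's adjusted p under 0.05, where 0.075% of 13333 genes passed in either direction, and 0 passed at an unadjusted p under 0.05, which 9.7% of all genes did. DESeq2 also called 0, with 0.27% of all genes higher. All 10 groups overlapped, and the log2 fold changes ran from −0.15 for Cd74 (SE 0.206) to 0.52 for Tap1 (SE 0.245, edgeR adjusted p = 0.533). The other class I genes stood at 0.04 to 0.25 and the other class II genes at −0.12 to 0.00, with standard errors of 0.150 to 0.278.

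At 19 mo 0 of the 10 genes passed edgeR's adjusted p under 0.05 either, where 0.0434% of 13833 genes passed in either direction, and DESeq2 called 0 of the 10, with 0.347% of all genes higher. The log2 fold change was above 0 for all 10 genes, as it was for 51.6% of all genes, with a median of 0.49 beside 0.01. At an unadjusted p under 0.05, 5 of the 10 were higher in V338Y mice, 4 of class I and 1 of class II, against 6.17% of all genes. Tap1 had the largest difference, 0.98 (SE 0.309, edgeR adjusted p = 0.525), and H2-K1 the smallest p, at 0.56 (SE 0.166, edgeR adjusted p = 0.525). These 2 genes did not overlap between genotypes, which held in the higher direction for 4.51% of all genes.

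H2-D1 differed by 0.61 at 19 mo (SE 0.222, edgeR adjusted p = 0.537), B2m by 0.54 (SE 0.191, edgeR adjusted p = 0.537) and Tap2 by 0.44 (SE 0.220, edgeR adjusted p = 0.580). On the class II side Ciita differed by 0.85 (SE 0.328, edgeR adjusted p = 0.541), while H2-Aa, H2-Ab1, H2-Eb1 and Cd74 differed by 0.30, 0.31, 0.29 and 0.34 with standard errors about as large, 0.293 to 0.341. At 19 mo mice with the same number correlated at 0.132 to 0.400 in their deviations from the group means. Pairs with different numbers spanned −0.407 to 0.467, and both ends were pairs of V338Y mouse 3. Among mice 2, 4 and 5 the pairs with different numbers spanned −0.364 to −0.0583. The labels do not say what a number shares, so a pairing by number is not shown. In a fit with mouse number as a replicate block, H2-D1 passed at 0.78 (edgeR adjusted p = 0.0494). It was 1 of the 10 genes, where 0.701% of all genes were called higher. V338Y mouse 3 has no wild-type partner in that fit and does not bear on the difference. H2-K1 at 0.68 (edgeR adjusted p = 0.0573), B2m at 0.67 and Tap1 at 1.15 (edgeR adjusted p = 0.0800 for both) stood just beyond the threshold in that fit. Leaving out 1 mouse at a time kept all 10 values above 0 and the number at an unadjusted p under 0.05 between 2 and 6, with 0 called in each case. The number was 2 without wild-type mouse 2 and 3 without wild-type mouse 5, V338Y mouse 2 or V338Y mouse 4. The 4 V338Y mice of 19 mo also enter the age comparison, so these results share mice.

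The interaction asks whether the change with age differed between genotypes. No gene of 14128 passed edgeR's adjusted p under 0.05 (0% called), and none of the 10 reached an unadjusted p under 0.05, which 9.63% of all genes did. That number rose to 4, with 3 of class I and 1 of class II, without V338Y mouse 1 of 3 mo, without V338Y mouse 3 of 19 mo or with the replicate block, to 2 without wild-type mouse 3 of 3 mo and to 1 without wild-type mouse 5 of 19 mo or without a filter. DESeq2 called 0 of the 10, with 0.142% of all genes higher. The estimate was above 0 for all 10, from 0.16 for Tap2 (SE 0.301) to 0.84 for Ciita (SE 0.436, edgeR adjusted p = 0.563), where 48.3% of all genes were above 0. The 7 calls with age in V338Y mice beside 1 in wild-type mice are thus not a shown difference between the genotypes.

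The classes parted within one group. The summed level of the 5 class I genes in V338Y mice at 19 mo was 410, 234, 369 and 336 CPM in mice 2, 3, 4 and 5, and that of the 5 class II genes was 274, 151, 276 and 115 CPM. Mouse 5 thus had a class I sum above those of all 11 other-group mice, 179 to 285 CPM, with a class II sum inside their range of 81.4 to 188 CPM. Mouse 3 had the lowest class I sum of its group, and mice 2 and 4 were high for both classes. Without mouse 5 the class II log2 fold changes between genotypes at 19 mo were 0.52 for H2-Aa, 0.50 for H2-Ab1, 0.48 for H2-Eb1 and 0.54 for Cd74, up from 0.29 to 0.34, while class I stayed at 0.56 for H2-K1, 0.62 for H2-D1 and 0.54 for B2m. None of these passed (edgeR adjusted p = 0.492 to 0.630).

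**Figure D3:**
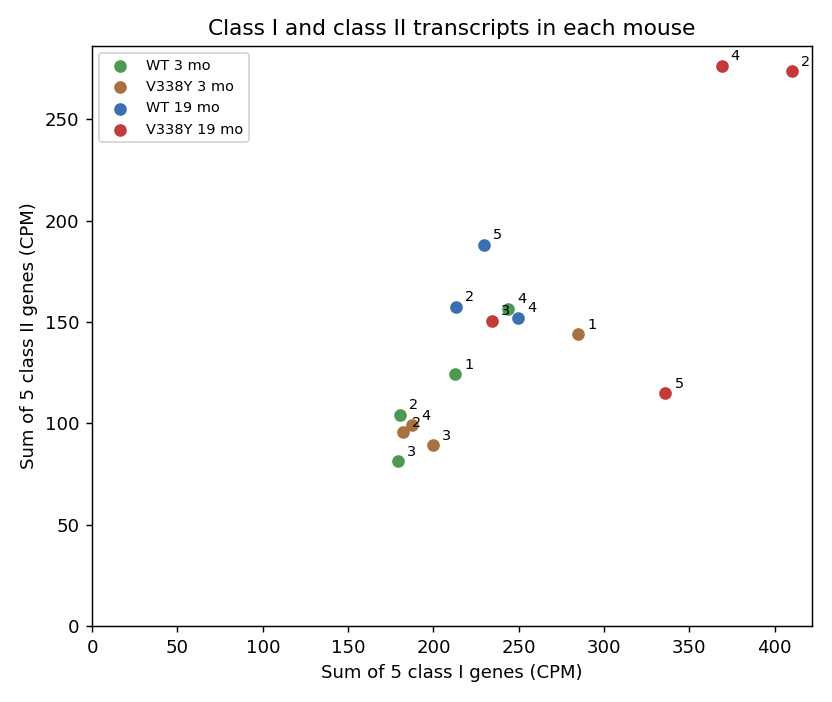
Sum of the 5 class II genes (y axis, CPM) against the sum of the 5 class I genes (x axis, CPM) in each of the 15 mice, coloured by group and marked with the mouse number. V338Y mice 2 and 4 at 19 mo stand at the top right, and mouse 5 stands at 336 CPM of class I with 115 CPM of class II.

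At 3 mo, where the genotypes overlapped throughout, the 10 genes shared their highest mouse within each genotype. Wild-type mouse 4 was the highest of its group for 10 of 10 genes, and V338Y mouse 1 was the highest of its group for 10 of 10. The same mice had the highest summed macrophage markers of their groups, 335 and 423 CPM against 234 to 287 CPM in the other 6, and were the highest for 11 of the 12 macrophage markers each. They also led for the summed endothelial markers, at 214 and 204 CPM against 169 to 185 CPM. Other lists were led by these mice too. Wild-type mouse 4 was highest for 5 of 5 erythroid, 0 of 7 adipocyte and 1 of 8 neutrophil markers. V338Y mouse 1 was highest for 0 of 5, 6 of 7 and 6 of 8 of them. Neither led for any of 7 B cell markers, and the share over all genes was not counted. At 19 mo wild-type mouse 5 was the highest for all 5 class II genes and mouse 4 for 4 of 5 class I genes, while V338Y mouse 2 led for 6 genes and mouse 4 for 4. The macrophage sums at 19 mo kept the order of the MHC genes only in part. They were 507, 476, 444 and 412 CPM in V338Y mice 2, 3, 4 and 5. Mouse 2 also had the highest class I sum, 410 CPM, and mouse 5 the lowest class II sum, 115 CPM. The lowest class I sum, 234 CPM, was that of mouse 3. In wild-type mice 2, 4 and 5 the macrophage sums were 343, 400 and 393 CPM. The class I sums of these mice had the same order, at 213, 250 and 230 CPM. Their class II sums, 158, 152 and 188 CPM, did not. The part of cell numbers in these levels was not tested.

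Macrophages and dendritic cells are known to make class II, and their markers were read beside it. The summed macrophage markers were at 234 to 335 and 256 to 423 CPM at 3 mo, and at 343 to 400 and 412 to 507 CPM at 19 mo, in wild-type and V338Y mice. Of 12 macrophage markers 5 were higher with age in wild-type mice and 6 with V338Y, including Adgre1 (F4/80) at 0.74 and 0.92 and Csf1r, the receptor for M-CSF, at 0.61 and 0.60 on the log2 scale, where 18.3% and 24.4% of all genes were called higher. The other 7 and 6 did not pass. Between genotypes at 19 mo 0 of the 12 passed, with 3 higher at an unadjusted p under 0.05 in edgeR and 12 of 12 above 0. Over all genes these shares were 6.17% and 51.6%. The dendritic cell markers summed to 10.9 to 17.2 CPM at 3 mo and 17.3 to 26.9 CPM at 19 mo, and Cd209a was higher with age in both genotypes, at 1.15 and 1.39, as 1 of 3 markers tested in wild-type and 1 of 5 in V338Y mice. Their part in the class II levels was not tested.

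B cell markers were low, with sums of 0.272 to 2.38 CPM at 3 mo and 0.746 to 2.56 CPM in wild-type mice at 19 mo, but stood at 1.30, 4.09, 18.4 and 7.20 CPM in V338Y mice 2 to 5 at 19 mo. With age in V338Y mice 4 of 5 tested B cell markers were higher, among them Ms4a1 (CD20) at 3.39 on the log2 scale, where 24.4% of all genes were. Of the 7 markers listed, 0 were tested with age in wild-type mice or between genotypes at 3 mo. The 5 thus passed the filter only through V338Y mice of 19 mo, where they were high, and their count is not support. Mouse 2, with class II as high as mouse 4, had the lowest B cell sum of its group. The part of B cells in the class II levels was not tested. T cell markers summed to at most 3.31 CPM in any mouse, and 2 of the 8 were at 0 in each 3 mo group. The muscle markers summed to 129454 to 149988 CPM at 3 mo and 71940 to 135853 CPM at 19 mo. Of 9 markers 3 and 4 were lower with age in wild-type and V338Y mice, where 2435 of 13657 and 22.5% of all genes were. Endothelial sums were 169 to 214 CPM at 3 mo and 255 to 407 CPM at 19 mo. Of 7 markers 3 and 4 were higher with age in wild-type and V338Y mice, where 18.3% and 24.4% of all genes were. Adipocyte sums spanned 315 to 1556 CPM at 3 mo and 224 to 1393 CPM at 19 mo, and erythroid sums 157 to 322 and 97.2 to 783 CPM.

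**Figure D4:**
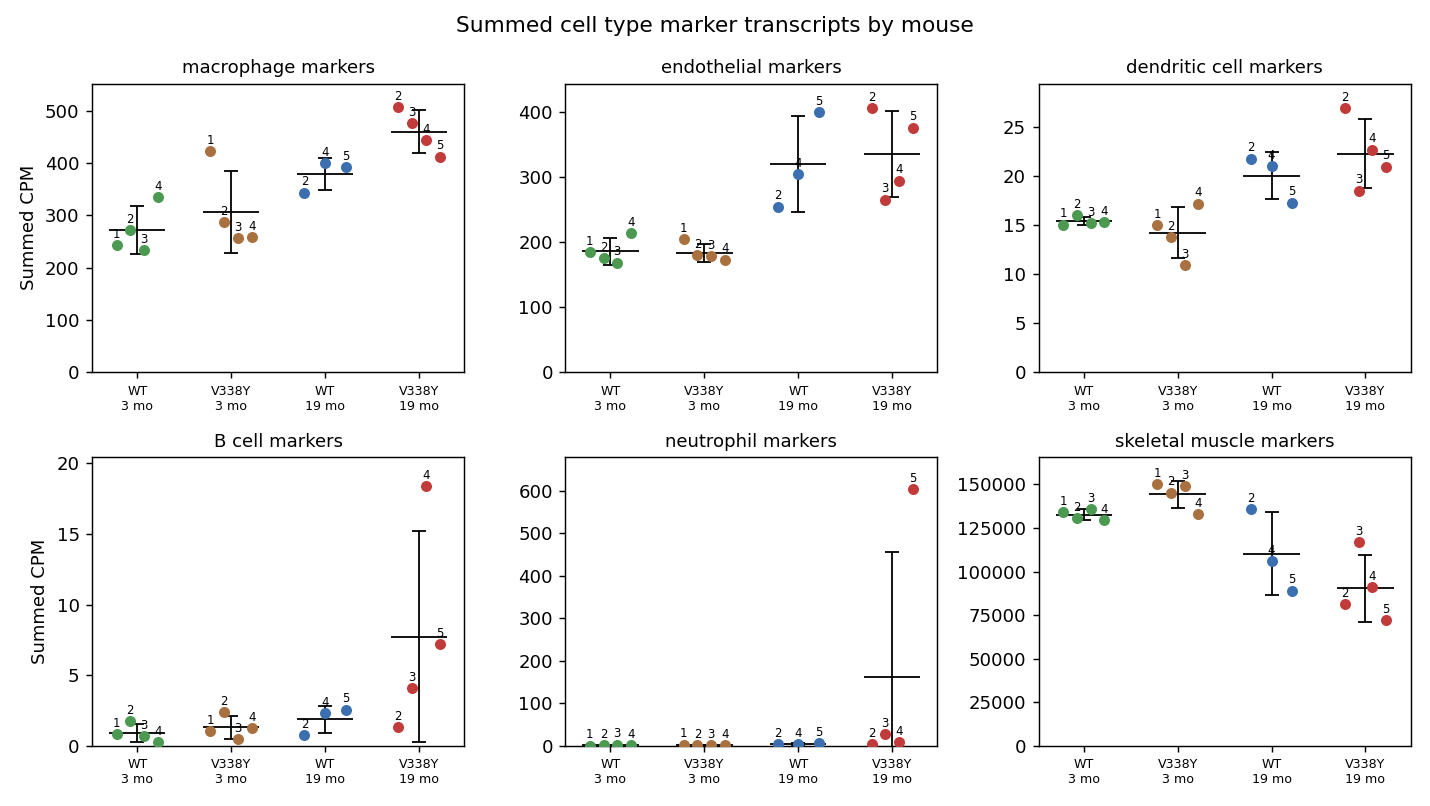
Summed CPM of 6 lists of cell type markers (y axes, linear from 0) by group (x axis), with each mouse as a numbered point, the mean as a line and the SD as bars. The macrophage sums of the 7 mice at 19 mo, 343 to 507 CPM, lie above those of 7 of the 8 mice at 3 mo, and the neutrophil sum of V338Y mouse 5 is 603 CPM.

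The other genes of the class I route were taken from a list of 19, all tested. With age in V338Y mice 8 were higher and 1 lower, where 24.4% of all genes were called higher and 22.5% lower. Nlrc5, the coactivator of class I genes, rose by 1.51 on the log2 scale (SE 0.312, edgeR adjusted p = 0.00381), Tapbp (tapasin, which bridges class I to the transporter) by 0.68 and Pdia3, a chaperone of peptide loading, by 0.50. The non-classical class I genes H2-Q4, H2-Q6, H2-Q7, H2-T23 and H2-T24 rose by 1.31, 1.66, 1.90, 0.55 and 1.08, although near-identical copies leave the counts of this family uncertain. In wild-type mice 3 were higher, near the 18.3% over all genes, H2-Q4 at 0.78, H2-Q6 at 1.72 and H2-Q7 at 1.69, and 2 were lower, the chaperone Calr at −0.38 and the proteasome activator Psme1 at −0.58. Psme1 was also the gene that was lower in V338Y mice, at −0.50.

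Between genotypes at 19 mo 0 of the 19 passed in edgeR, with 10 higher at an unadjusted p under 0.05 and 18 above 0. Over all genes these shares were 6.17% and 51.6%. The smallest p-values were those of Nlrc5 at 1.10 (SE 0.308, edgeR adjusted p = 0.511), H2-Q4 at 0.63 and H2-T24 at 1.21. Nlrc5 was at 4.23, 4.74 and 7.61 CPM in wild-type mice at 19 mo and at 16.2, 7.31, 10.2 and 12.4 CPM in V338Y mice, which overlapped through V338Y mouse 3. At 3 mo it was at 3.97 ± 1.04 and 3.98 ± 1.75 CPM (SD, n = 4 each). The immunoproteasome subunits, which cut peptides for class I, were also on the list, and Psmb8, Psmb9 and Psmb10 differed by 0.66, 0.83 and 0.49 between genotypes at 19 mo (edgeR adjusted p = 0.578, 0.541 and 0.554). At 3 mo 0 of the 19 passed in edgeR, also at an unadjusted p under 0.05, which 9.7% of all genes did.

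The class II route was taken from a list of 20 genes, of which 17 were tested for age in V338Y mice and 14 in wild-type mice. Genes tested in V338Y but not in wild-type mice passed the filter through V338Y mice alone. A higher level of such a gene in V338Y mice of 19 mo is not support. In V338Y mice 3 were higher, H2-DMa, a chain of the DM peptide editor, at 1.06, H2-Ob, a chain of the DM inhibitor DO, at 1.78, and Nfya, a subunit of the Y-box factor NF-Y, at 0.97. Rfxap at −0.45 and Nfyb at −0.71 were lower. In wild-type mice Rfx5 at 0.59 and Nfya at 0.51 were higher, and Rfxap at −0.33 and Nfyb at −0.47 were lower. These counts are no larger a share of the list than the 24.4% higher and 22.5% lower over all genes in V338Y mice or the 18.3% higher in wild-type mice. Between genotypes 0 passed in edgeR at either age. At 3 mo 0 of 14 were at an unadjusted p under 0.05, which 9.7% of all genes were. At 19 mo 3 of 17 were higher at that p, H2-Ob, Lgmn and Nfya, beside 6.17% of all genes.

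Interferon gamma is the classical inducer of both routes. Its transcript Ifng had 0 counts in all 8 mice at 3 mo and at most 0.100 CPM at 19 mo, which is 1 count. Of the 8 tested genes on the list of its signalling, Irf2 was higher with age in wild-type and V338Y mice, at 1.08 and 1.06, and the kinase Jak2 was lower, at −1.16 and −0.94. Ifngr2 was lower in V338Y mice at −0.57.

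The genes whose profile over the 15 mice was nearest to the mean of H2-Aa, H2-Ab1, H2-Eb1 and Cd74 were ranked by the root mean square difference of centred log2 CPM among 12686 genes. Mir5107 came first at 0.163, but it lies inside Cd74 at chr18:60812076-60812163, so the counts may come from the same transcripts. Pxdn at 0.175, H2-DMa at 0.191, H2-DMb1 at 0.207 and Kctd12 at 0.221 followed, where the profile itself varied by 0.503 around its mean. For the class I genes H2-K1, H2-D1 and B2m, with a variation of 0.360, the nearest were Gmds at 0.126, Cd48 at 0.131, Maged1 at 0.144, Tnfrsf1a at 0.156 and Cd53 at 0.161. Cd48 and Cd53 are surface proteins of white blood cells, and H2-DMa and H2-DMb1 are the chains that edit class II peptides. Pxdn, Kctd12, Gmds, Maged1 and Tnfrsf1a, also among the nearest, were on none of the pathway or marker lists used here. Nearness over mice that differ in age and cell makeup is a description.

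B2m shares chromosome 2 with the mutated gene, since Mrps5 begins 5.434 Mb further along at chr2:127587222-127606829. Of the 29 genes tested within 1 Mb of B2m, 3 were called between genotypes at 3 mo, where 0.075% of all genes were. They were Bloc1s6 at 0.77, Eif3j1 at −1.24 and Gm14085 at 6.35 on the log2 scale. At 19 mo 2 were called, where 0.0434% of all genes were, Eif3j1 at −1.69 and Gm14085 at 8.66. Eif3j2, on chromosome 18, was called in the other direction from Eif3j1, at 6.72 and 5.96. Eif3j1 lies 91.1 kb from B2m. Beyond 1 Mb, chromosome 2 also held Chp1 at −0.75, Snap23 at −1.04, Haus2 at −0.71 and Fahd2a at 0.64, called at 3 mo. The first 3 lie before B2m, and Fahd2a lies between B2m and Mrps5. B2m itself differed by 0.04 at 3 mo (SE 0.150) and by 0.54 at 19 mo (SE 0.191). The part of genome flanking the mutation in the B2m difference at 19 mo was not tested, and the other 9 genes lie on other chromosomes.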

How the data were processed

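RNA of quadriceps from 15 mice was sequenced with a stranded kit. The authors aligned reads with STAR 2.4.2a and deposited an RSEM expected count per gene and mouse, held as whole numbers with no scaling for depth or length (8250653 to 18968132 per mouse). The processing notes of the labels name GRCm38. Counts of Ensembl genes were used as deposited, and 37607 of 39179 IDs had a symbol.

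Groups were taken from the labels. Of 105 file pairs 0 were identical, and chi-square per degree of freedom within groups was 5.85 to 111. Whether libraries of a group are separate animals rests on their mouse numbers. Genes that reached 10 counts in 50% or more of the mice in any compared group were tested in R 4.3.3 with edgeR 4.0.16 (TMM, quasi-likelihood test), fitted on the groups compared or on all 15 mice for the interaction, with Benjamini-Hochberg adjustment over all genes tested and a threshold of 0.05. A gene is called when it passes this. Alternatives were RLE and upper-quartile scaling, DESeq2 1.42.0, no filter, all 15 mice in 1 fit, a replicate block, an unadjusted p under 0.005 for age, and each mouse left out. Likeness used log2 of CPM plus 0.5 and genes with a mean of at least 1 CPM. Code was tested on simulated data.

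At 19 mo the 3 pairs of mice with the same number correlated at 0.132 to 0.400 in their deviations from the group means. The 9 pairs with different numbers had correlations of −0.407 to 0.467, and both ends were pairs of V338Y mouse 3. Without that mouse they spanned −0.364 to −0.0583. Nothing in the labels says what a number shares.

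Named genes are the 10 members in every comparison, and of other lists those called or, if none, the 3 with the smallest p. The members and lists were chosen with earlier results of these data known. Positions and exon lengths come from GENCODE for GRCm38, promoters from RefSeq (GRCm38.p6). Some genes of the other lists are not reported here.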

Additional observations from a re-analysis of the deposited data

How the results depend on the processing

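Of the log2 fold changes of the 10 genes under alternatives, 689 kept their direction and side of the threshold, 26 lost and 26 gained a call and 24 turned sign, and the cause was not tested. The 80 group means of CPM moved by less than 1 SD under RLE or total-count scaling. With age in V338Y mice, 7 genes were called under RLE and upper-quartile scaling, 8 without a filter, 9 with the replicate block, 10 by DESeq2 or with all 15 mice, 4 at an unadjusted p under 0.005 (2237 genes higher among all, against 3389) and 4 to 10 with 1 mouse left out. In wild-type mice 1 was called, with 3 by DESeq2 or without a filter, 0 with all 15 mice, the block or an unadjusted p under 0.005, and 0 to 6 with 1 mouse left out.

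Same-number correlations were 0.00482 to 0.0158 for age in wild-type mice, −0.136 to 0.0148 for age in V338Y mice and −0.162 to 0.141 at 3 mo. The replicate block called 1191 genes higher and 1038 lower with age in wild-type mice, against 2505 and 2435, with Ciita at −0.27. Between genotypes at 3 mo the block called 4 higher and 10 lower. With the block at 19 mo, 97 genes were higher and 13 lower between genotypes, against 5 and 1, with 1 of the 10 genes called, and the interaction had 24 higher and 4 lower, against 0. Between genotypes DESeq2 called 36 higher and 30 lower at 3 mo, 48 and 14 at 19 mo, and 20 and 6 for the interaction. Without a filter these were 19 and 14, 12 and 2, and 5 and 0, and with all 15 mice 3 were lower at 19 mo. With 1 mouse left out, 2 to 8 were higher and 1 to 6 lower at 3 mo, and 2 to 6 and 0 to 2 at 19 mo.

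Beside Ciita under the block, these signs turned. Between genotypes at 3 mo H2-Ab1 was at −0.000195 under RLE, −0.0102 by DESeq2, −0.0018 without a filter, −0.0089 with all 15 mice and −0.0021 with the block, against 0.0013. With 1 mouse left out at 3 mo, H2-K1 ran from −0.0883 to 0.20, H2-D1 from −0.13 to 0.15, B2m from −0.11 to 0.14, H2-Aa from −0.30 to 0.0693, H2-Ab1 from −0.20 to 0.19, H2-Eb1 from −0.31 to 0.0453, Cd74 from −0.32 to 0.0182 and Ciita from −0.30 to 0.14, and with age in wild-type mice Ciita ran from −0.0336 to 0.44. The 3 to 4 mice per group and the 17 to 66 counts of Ciita limit the precision.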
